A study of Mus musculus with 11 samples.

Results

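The genes described here encode collagens, laminins and the proteins that join them into basement membranes. They were chosen by symbol as every collagen chain (Col, a type number, a and a chain number), every laminin chain (Lama, Lamb or Lamc and a number), Nid1, Nid2, Hspg2, Agrn, Fn1 and Sparc. The rule used no measured value, and it found 59 of the 36666 genes of the count table. Of these, 42 encode collagen chains, 11 encode laminin chains and 6 are the genes given by name. All 59 passed the filter on low counts and were tested.

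The measurement was poly(A)+ RNA sequencing of 1 frozen cerebral hemisphere per mouse, from male C57/Bl6 mice aged 1 year. The mutator group was 7 Polg D257A/D257A mice, in which both copies of the mitochondrial DNA polymerase lack proofreading in every tissue. The control group was 4 littermates from the same crosses of heterozygotes, 3 of them WT/WT and 1 WT/D257A. The WT/D257A mouse (mouse 237) carries 1 mutant allele, so the control group is mixed in genotype, and its values are given beside the others.

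A basement membrane is a thin sheet of extracellular matrix on which endothelial and other cells rest. In the brain it wraps the capillaries, where endothelial cells, pericytes and the end-feet of astrocytes share it, and it lines the pia beneath the meninges. Collagen IV and laminin each form a network, the nidogens and perlecan tie the networks together, and agrin and laminin are bound by receptors of the neighbouring cells. Fibrillar collagens lie mostly outside basement membranes, in meninges and vessel walls, and several collagens with a transmembrane segment sit on neurons.

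Depth ran from 28249345 to 121182250 gene counts in a mouse. In mutator mouse 248 the counts came to 3.00 per aligned read listed by the authors, against 0.744 to 0.775 in the other mice. The 7 neuron, 8 astrocyte and 8 oligodendrocyte markers all had counts in each mouse, as a cerebral hemisphere holds. Since whole hemispheres were measured, fewer cells of a type and less RNA per cell cannot be told apart. Several collagens were highest among the controls in mouse 237, and the results below are also given without it where that matters.

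Of the 59 genes, 1 was called at an adjusted p under 0.05 by edgeR's quasi-likelihood test, which is 1.69% of them, against 1.24% of the 17983 genes tested. It was Col11a2, which fell. At an unadjusted p under 0.05 there were 11 of the 59, or 18.6%, against 15.8% of all genes. Of these, 6 were higher in mutators, where 7.18% of all genes were, and 5 were lower, where 8.58% of all genes were. These shares are near those of all genes and are no result about the matrix genes as a group. The median log2 fold change over the 59 was -0.032, against 0.0014 over all genes tested, with 27 genes above 0 and 32 below.

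**Figure D1:**
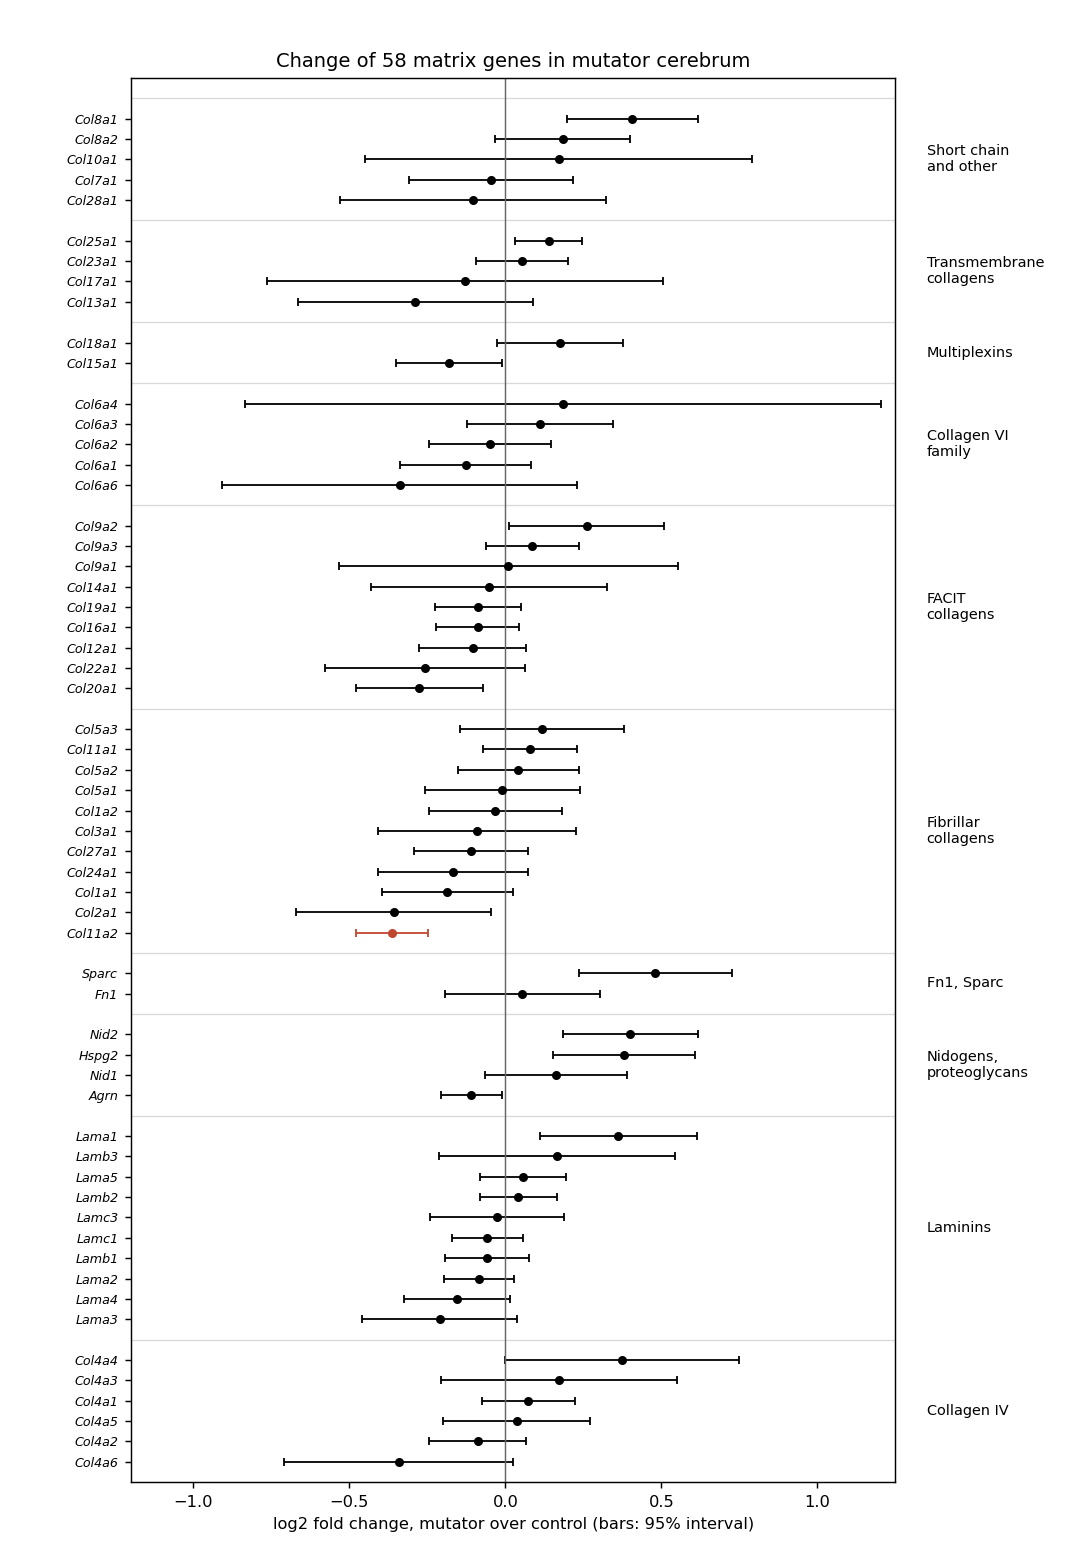
The horizontal axis shows the log2 fold change of 58 of the genes, mutator over control, with bars of 1.96 SE, grouped by role. The bars are an approximate 95% interval from the normal distribution and are narrower than the quasi-likelihood test allows. For Col15a1 they leave out 0 (-0.35 to -0.011) at an unadjusted edgeR p of 0.0501. Col11a2, in red at -0.36, has the lowest point and is the gene called after adjustment, and Sparc has the highest at 0.48.

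The levels of the 59 genes were compared per length, as RPKM (CPM per kilobase of exon). Sparc stood first in the controls at 119 ± 2.74 RPKM (SD, n = 4), followed by Agrn at 31.1 ± 2.68 RPKM and Col6a1 at 18.5 ± 3.03 RPKM. The values of the 4 controls did not overlap between any of these neighbours in the order. Col4a2 (9.08 ± 0.713 RPKM), Col25a1 (8.76 ± 0.979 RPKM), Fn1 (7.13 ± 1.59 RPKM) and Col4a1 (6.49 ± 0.615 RPKM) came next, and each overlapped its neighbour. Among the laminins the highest level was that of Lamb2, at 5.07 ± 0.526 RPKM, which overlapped Lamc1 at 4.78 ± 0.177 RPKM. The lowest levels were those of Col10a1 (0.0843 ± 0.0243 RPKM) and Col6a6 (0.0631 ± 0.0132 RPKM).

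**Figure D2:**
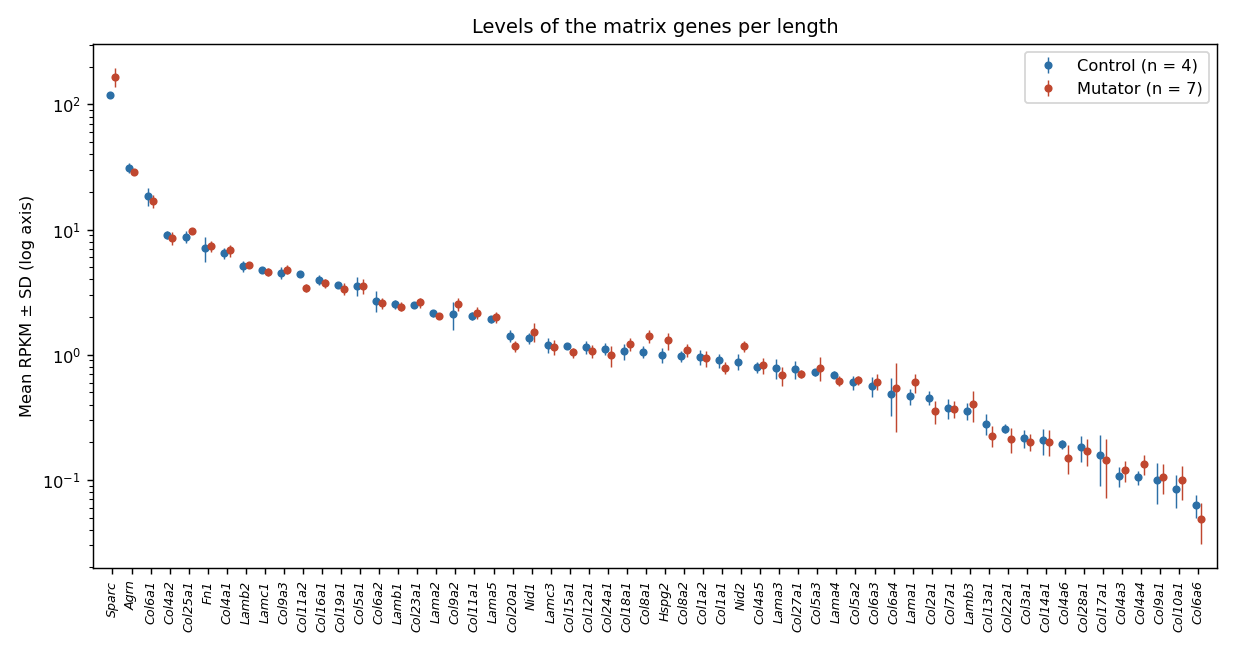
Mean RPKM with SD on a log axis for 58 of the genes, ordered by their level in the 4 controls (blue), with the 7 mutators in red. Sparc is highest at 119 RPKM in controls and 167 RPKM in mutators, and Col6a6 is lowest at 0.0631 and 0.0482 RPKM.

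The highest mouse had 1.63 times the level of the lowest at the median over the 59 genes. Col6a4, a gene of the collagen VI family, varied most, with 9.61 times between its highest and lowest mouse. Its levels ran from 2.54 to 5.78 CPM in controls and from 0.879 to 8.45 CPM in mutators, so the groups overlapped throughout.

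Collagen IV forms the sheet-like network of all basement membranes, and the trimer of alpha1 and alpha2 chains is its form in vessels. None of the 6 chains was called, and 0 had an unadjusted p under 0.05 by edgeR. DESeq2 called 0 of them as well. The chains Col4a1 and Col4a2 were the most abundant of the family. Col4a1 was at 42.8, 50.4, 41.3 and 42.3 CPM in control mice 205, 237, 239 and 246. In the mutators it ran from 39.2 over a median of 47.7 to 53.3 CPM. The groups overlapped, the WT/D257A mouse stood above the other controls, and the log2 fold change was 0.074 (SE 0.076, edgeR adjusted p = 0.684). Col4a2 was at 54.9, 65.7, 57.8 and 62.0 CPM in the same controls and between 47.2 and 64.1 CPM in mutators, with a log2 fold change of -0.089 (SE 0.079, edgeR adjusted p = 0.628).

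The ratio of these chains, which are joined in one trimer, lay apart between the groups. The ratio of Col4a2 to Col4a1 CPM was 1.28, 1.30, 1.40 and 1.47 in control mice 205, 237, 239 and 246. In the 7 mutators it was between 1.11 and 1.27, with a median of 1.23. All mutators were thus below all controls, with a difference of -0.17 in mean log2 ratio (SE 0.053). The exact permutation test over the 330 splits of 4 against 7 mice gave p = 0.00606, where the smallest p possible is 0.00303. Adjusted over the 9 pairs of chains compared, this is 0.0545, which did not pass the threshold of 0.05. It came to 0.0429 when mutator mouse 207, 236 or 248 was left out, the lowest adjusted value that 1 ratio alone can reach in those fits. These mice had the lowest ratios of the mutators, at 1.11, 1.20 and 1.15. They are named because the ratio passed without them, so those fits are no support for a difference. Both genes lie head to head on chromosome 8 and share a promoter region. In mm9, Col4a1 runs from 11198423 to 11312826 on the minus strand and Col4a2 from 11312805 to 11449287 on the plus strand, so that their first exons overlap. The reads carry no strand, and reads from that overlap cannot be assigned to either gene. Annotated genes on the other strand also overlap Col4a2 (Gm15419), Nid2 (2700060E02Rik), Fn1 (Apol7d) and Col5a1 (2810430I11Rik and Gm13372). The part of these overlaps in the values was not tested.

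The remaining collagen IV chains build networks that are found in few tissues, such as the kidney and lens, and had low counts here. Col4a5 was at 5.36 ± 0.547 CPM in controls and 5.53 ± 0.852 CPM in mutators (log2 fold change 0.036, SE 0.12). Col4a6, its neighbour on the X chromosome, was at 1.54 ± 0.121 and 1.20 ± 0.307 CPM (log2 fold change -0.34, SE 0.19, edgeR adjusted p = 0.389). Col4a4 was at 0.873 ± 0.114 and 1.12 ± 0.203 CPM (log2 fold change 0.37, SE 0.19, edgeR adjusted p = 0.353), on 26 to 127 reads per mouse. Col4a3 was at 1.07 ± 0.188 and 1.19 ± 0.232 CPM. In each of these 4 chains the groups overlapped. The ratio of Col4a6 to Col4a5 was between 0.262 and 0.324 in controls and between 0.124 and 0.340 in mutators, and that of Col4a4 to Col4a3 was between 0.740 and 0.960 and between 0.708 and 1.50. Neither differed beyond the spread between mice (exact permutation p = 0.136 and 0.385).

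Laminins are trimers of an alpha, a beta and a gamma chain. The alpha4 and alpha5 chains are those of endothelial basement membranes, alpha1 and alpha2 those of the outer, astrocytic side, and beta1, beta2 and gamma1 take part in most trimers of the brain. Of the 11 chains, 0 were called by edgeR or DESeq2, and 2 had an unadjusted p under 0.05 by edgeR (15.8% of all genes had). Lama1 was at 4.84, 4.83, 4.60 and 3.49 CPM in control mice 205, 237, 239 and 246 and between 4.62 and 7.33 CPM in mutators, with a median of 5.57. Mutator mice 211 and 249 lay within the controls' range, and the log2 fold change of 0.36 (SE 0.13) did not pass (edgeR adjusted p = 0.165).

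The chains of the common trimers were close between the groups. Lamc1, which most laminins contain, was at 39.5 ± 1.46 CPM in controls and 38.0 ± 2.98 CPM in mutators, a log2 fold change of -0.058 with a 95% interval from -0.17 to 0.057. Lamb2 was at 28.5 ± 2.96 and 29.2 ± 1.56 CPM, with an interval from -0.083 to 0.16. Lamb1 was at 25.1 ± 2.25 and 24.1 ± 1.97 CPM, with an interval from -0.19 to 0.075. All 3 intervals, which are approximate (1.96 SE), include 0.

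Among the alpha chains, Lama2, whose loss causes a muscular dystrophy, was at 21.0 ± 1.31 CPM in controls and 19.8 ± 0.783 CPM in mutators (log2 fold change -0.085, SE 0.057). Lama5 was at 21.9 ± 1.42 and 22.7 ± 2.17 CPM (log2 fold change 0.056, SE 0.070). Lama4 was at 8.35 ± 0.542 and 7.48 ± 0.703 CPM (log2 fold change -0.15, SE 0.087, edgeR adjusted p = 0.405). The ratio of Lama4 to Lama5 was at 0.409, 0.341, 0.368 and 0.411 in control mice 205, 237, 239 and 246 and between 0.299 and 0.373 in mutators. It was lower in mutators at an exact permutation p of 0.0242, which the adjustment over 9 pairs took to 0.109. Lama3, the alpha chain of epithelial laminin, was at 8.24 ± 1.54 and 7.20 ± 1.27 CPM (log2 fold change -0.21, SE 0.13). Lamb3 and Lamc3, at 1.56 ± 0.233 and 7.28 ± 0.943 CPM in controls, had log2 fold changes of 0.17 (SE 0.19) and -0.028 (SE 0.11). The ratios of Lama2 to Lama5 and of Lamb2 to Lamb1 gave exact permutation p-values of 0.248 and 0.145.

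**Figure D3:**
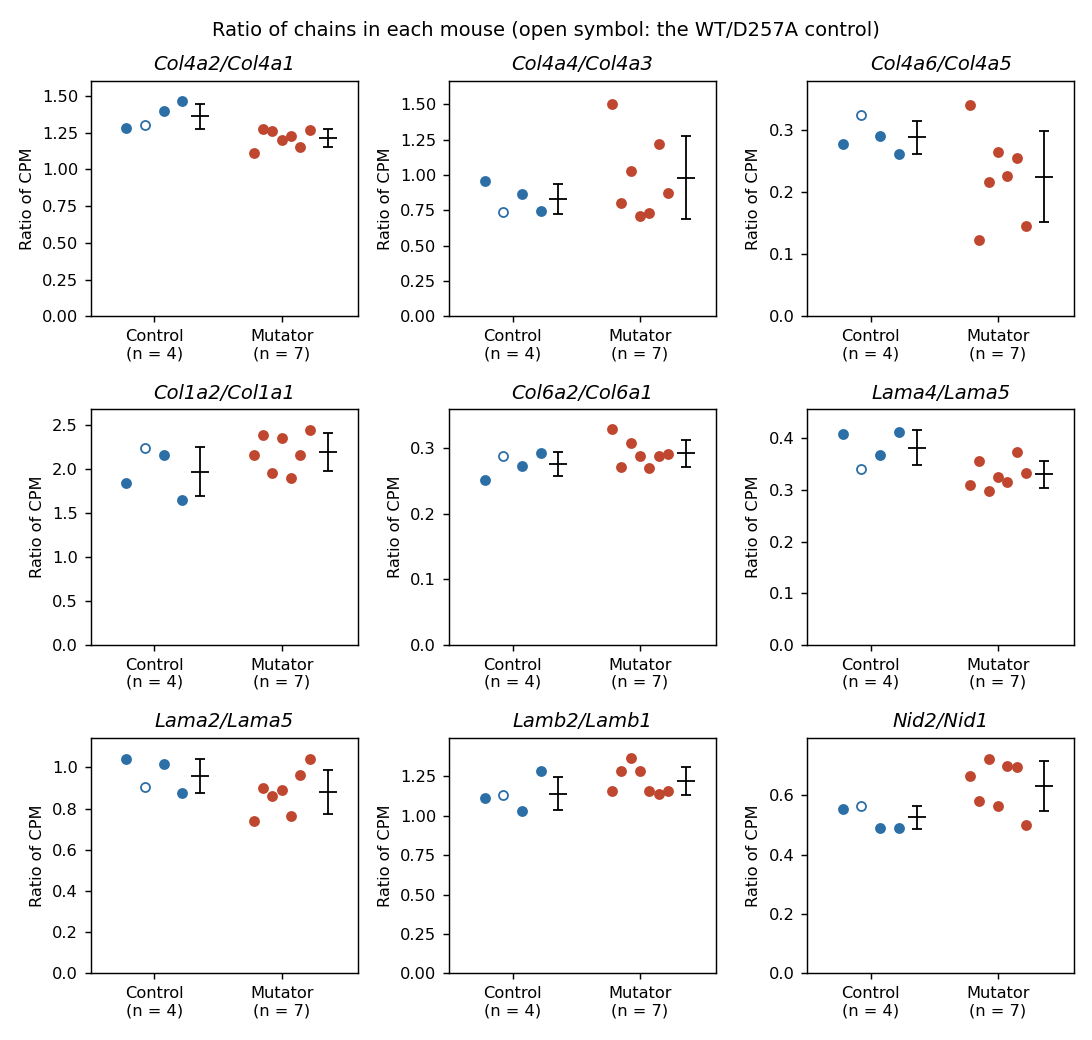
Ratio of the CPM of 9 pairs of chains in each mouse, with the mean and SD of each group beside the points and the WT/D257A control as an open symbol. In the first panel the 4 controls lie between 1.28 and 1.47 and the 7 mutators between 1.11 and 1.27, while the groups overlap in the other panels.

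Nidogens and proteoglycans are the linkers of the basement membrane. Of these 4 genes, 0 were called by edgeR, and DESeq2 called Nid2 and Hspg2. By edgeR, 3 had an unadjusted p under 0.05, 2 of them higher and Agrn lower, where 7.18% and 8.58% of all genes were. DESeq2 called 5 of the 59 matrix genes in all, or 8.47%, against 3.58% of the 17202 genes for which it gave an adjusted p, and those were Col11a2, Col8a1, Hspg2, Nid2 and Sparc. Nid2, one of the nidogens that bridge laminin and collagen IV, was at 5.17, 4.37, 3.88 and 3.82 CPM in control mice 205, 237, 239 and 246. In the mutators it was between 4.80 and 6.54 CPM, with a median of 5.87. All mutators but mouse 207 were above all controls, and the log2 fold change was 0.40 (SE 0.11, edgeR adjusted p = 0.0752). Nid1, the other nidogen, was at 9.33, 7.76, 7.90 and 7.78 CPM in the same controls and between 7.20 and 11.3 CPM in mutators (log2 fold change 0.16, SE 0.12, edgeR adjusted p = 0.529). The ratio of Nid2 to Nid1 was 0.525 ± 0.0396 in controls and 0.632 ± 0.0839 in mutators (exact permutation p = 0.0515, adjusted 0.155).

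Hspg2 encodes perlecan, a large heparan sulfate proteoglycan of vessel walls. Its levels were 13.0, 17.3, 13.8 and 13.3 CPM in control mice 205, 237, 239 and 246 and between 13.8 and 23.1 CPM in mutators, with a median of 18.7. Mutator mouse 207 was at the level of the WT/WT mice, mutator mouse 248 was just under the WT/D257A mouse, and the 5 other mutators were above all controls. The log2 fold change was 0.38 (SE 0.12, edgeR adjusted p = 0.122). Without mutator mouse 207 it was 0.44, and edgeR then called Hspg2, Nid2 and Col8a1 beside Col11a2, 4 of the 59 genes or 6.78%, against 1.53% of the 17852 genes tested in that fit (adjusted p of Hspg2 0.0167). Mouse 207 was the lowest mutator for Hspg2, Nid2 and Col8a1, so leaving it out favours these calls, and that share is no support for them. With any other mouse left out, Hspg2 was not called (edgeR adjusted p from 0.126 to 0.303). Agrn encodes agrin, a proteoglycan of the outer face of brain vessels and of synapses, and was at 231, 279, 240 and 240 CPM in the same controls and between 218 and 239 CPM in mutators. The highest value was that of the WT/D257A mouse, and the log2 fold change of -0.11 (SE 0.050, edgeR adjusted p = 0.284) came to -0.046 with the WT/WT mice as the controls.

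Sparc, a secreted glycoprotein that binds collagen and calcium and takes part in collagen deposition, had the highest fold change of the 59 genes. Its levels were 412, 392, 408 and 397 CPM in control mice 205, 237, 239 and 246. In the mutators they were between 458 and 700 CPM, with a median of 585. All 7 mutators were above all 4 controls, with mice 211, 248 and 249 nearest to them at 461, 458 and 468 CPM. The log2 fold change was 0.48 (SE 0.12), a 1.40-fold difference, and it did not pass after adjustment (edgeR adjusted p = 0.0963, DESeq2 adjusted p = 0.0143). With the 3 WT/WT mice as the controls it was 0.47 (edgeR adjusted p = 0.322). Sparc and Col11a2 were the 2 of the 59 genes whose groups did not overlap, which is 3.39%, against 2.62% of all genes tested.

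**Figure D4:**
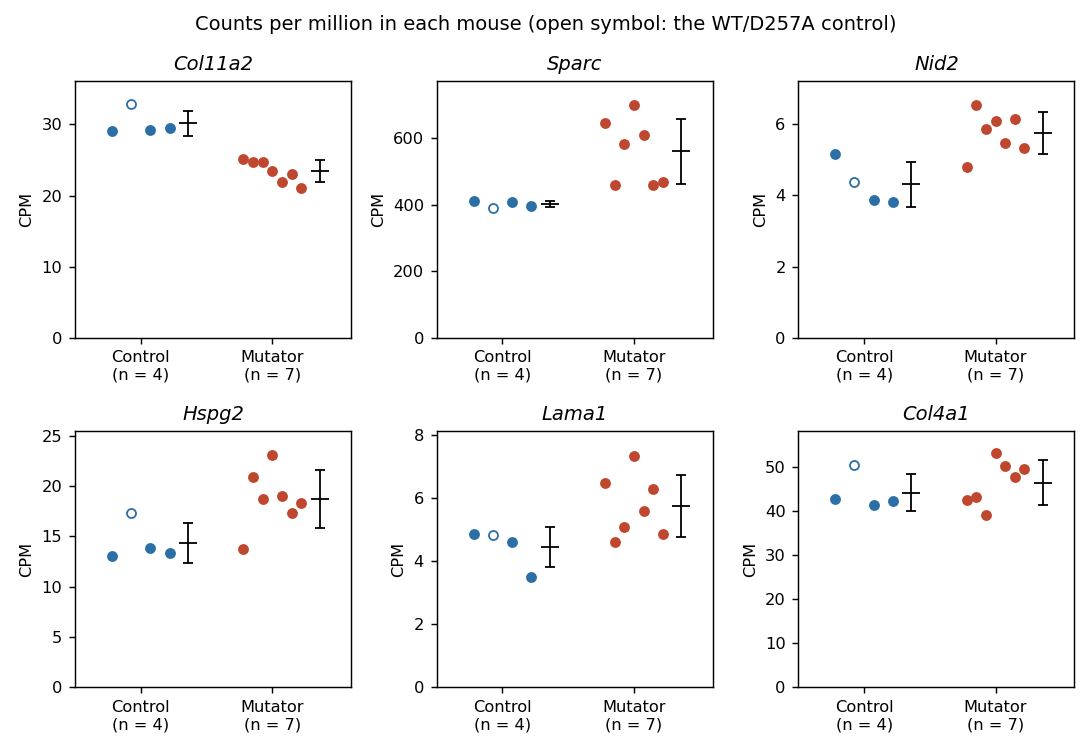
CPM of 6 genes in each of the 4 controls and 7 mutators, with the mean and SD of the group beside the points and the WT/D257A control as an open symbol. All mutators lie below all controls for Col11a2 and above them for Sparc, while the groups overlap for Nid2, Hspg2, Lama1 and Col4a1.

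Beside Sparc, Nid2 and Hspg2, the levels of markers of vessel and meningeal cells were read. The summed level of 16 fibroblast and meningeal markers was 539.7 to 641.1 CPM in controls and 717.3 to 1008 CPM in mutators, and 13 of the 16 were higher in mutators. Most of that sum was Ptgds, an enzyme that makes prostaglandin D2 in meninges and oligodendrocytes, which rose from 426 ± 29.3 to 630 ± 86.5 CPM (log2 fold change 0.56, SE 0.090, edgeR adjusted p = 0.00822). Ptgds alone was at 389.3 to 460.4 CPM in controls and 552.7 to 806.5 CPM in mutators. The sum was not taken without Ptgds, so its gap between the groups cannot be read as one of the other markers. The median log2 fold change of the 16 was 0.12. The 15 endothelial markers summed to 373.4 to 463.3 CPM in controls and 416.7 to 520.1 CPM in mutators, with 11 higher, 4 lower, 0 called by edgeR and 5 at an unadjusted p under 0.05, where 15.8% of all genes were. Of 9 pericyte markers, 4 were higher and 5 lower, with a median log2 fold change of -0.078 and summed levels of 210.6 to 231.2 CPM in controls and 208.3 to 245.7 CPM in mutators. Abcc9, a channel subunit, was the 1 called, where 1.24% of all genes were. It rose from 11.1 ± 0.939 to 17.5 ± 1.83 CPM (log2 fold change 0.64, SE 0.083, edgeR adjusted p = 0.000433). The 8 smooth muscle markers had a median log2 fold change of -0.078, and the 10 choroid plexus markers 0.15. The part of these cells in the results on matrix genes was not tested.

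Fn1 encodes fibronectin, a dimer that is laid down around vessels and comes from plasma as well. It was at 49.9, 56.9, 52.3 and 79.0 CPM in control mice 205, 237, 239 and 246 and between 51.6 and 68.3 CPM in mutators, with a median of 62.8. Control mouse 246 was above all mutators, and the log2 fold change was 0.054 (SE 0.13, edgeR adjusted p = 0.878). Fibronectin messages differ by the exons for the extra domains EIIIA and EIIIB, which are spliced in mostly in embryos and around remodelling vessels. The sequences of these exons follow as the sources of the counts given next, 5′ to 3′ on the minus strand of mm9, with the exon in capitals and 10 intronic bases on either side in lower case. The EIIIA exon lies at chr1:71650234-71650503 and is in 2 of the 3 annotated transcripts, and the EIIIB exon lies at chr1:71660337-71660609 and is in 1 of them.
EIIIA: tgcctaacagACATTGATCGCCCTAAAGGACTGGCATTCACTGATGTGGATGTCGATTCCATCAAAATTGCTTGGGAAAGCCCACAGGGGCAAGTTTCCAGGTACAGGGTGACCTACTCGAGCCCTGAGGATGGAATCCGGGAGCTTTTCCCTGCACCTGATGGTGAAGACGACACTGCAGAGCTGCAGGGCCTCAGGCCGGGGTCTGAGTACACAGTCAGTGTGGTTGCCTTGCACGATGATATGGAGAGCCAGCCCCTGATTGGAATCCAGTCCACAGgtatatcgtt
EIIIB: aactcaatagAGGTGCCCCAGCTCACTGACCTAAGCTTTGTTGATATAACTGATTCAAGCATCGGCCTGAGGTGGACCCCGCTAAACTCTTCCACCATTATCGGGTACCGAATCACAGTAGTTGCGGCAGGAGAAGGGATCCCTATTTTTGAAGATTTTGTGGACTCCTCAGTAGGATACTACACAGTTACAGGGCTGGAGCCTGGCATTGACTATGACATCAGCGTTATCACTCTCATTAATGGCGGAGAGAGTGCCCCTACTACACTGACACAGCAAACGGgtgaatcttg

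Exon bins were deposited for 10 mice, the 3 WT/WT and the 7 mutators, without the WT/D257A mouse. The density of reads in the EIIIA exon, as a percent of that in the rest of Fn1, was 29.5%, 25.6% and 21.3% in WT/WT mice 205, 239 and 246. It was between 20.2% and 28.4% in mutators, with a median of 21.9%, so the groups overlapped and did not differ beyond their spread (mean difference -1.50 percentage points, exact permutation p = 0.567 over 120 splits, where 0.00833 is the smallest possible). In the EIIIB exon the density was 27.1%, 29.1% and 25.3% in the same WT/WT mice and between 15.4% and 31.2% in mutators, with a median of 24.5% (mean difference -2.88 percentage points, exact permutation p = 0.417). Both exons rest on 15 to 59 reads per mouse. Exons of the same lengths that are in each annotated transcript stood at 79.4% ± 3.87 and 94.1% ± 6.94 in the WT/WT mice (SD, n = 3), against 27.2% ± 1.90 for EIIIB and 25.4% ± 4.09 for EIIIA. This measure was chosen after the exon bins had been seen.

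**Figure D5:**
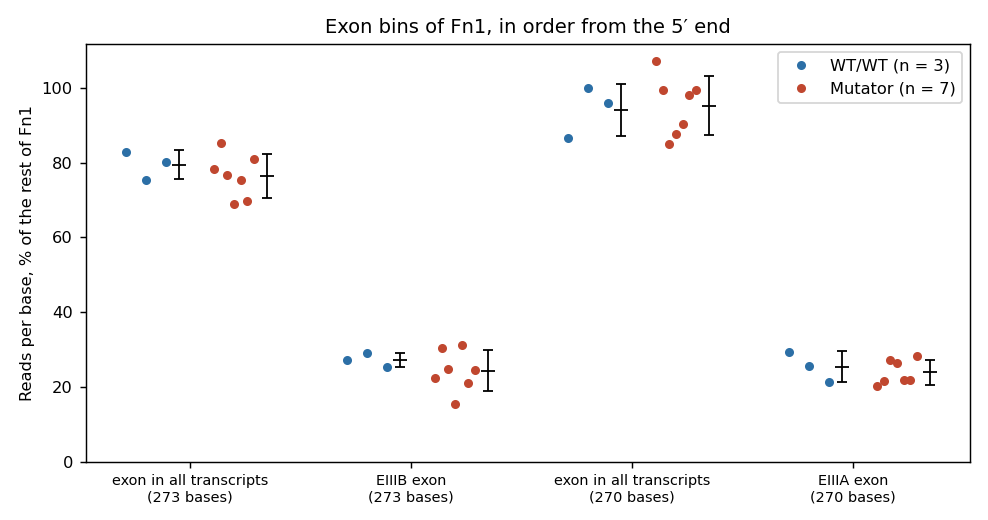
Reads per base in 4 exons of Fn1 as a percent of the rest of the gene, for each of the 3 WT/WT mice (blue) and 7 mutators (red), with mean and SD, in order from the 5′ end. The EIIIB and EIIIA exons lie between 15.4% and 31.2% in both groups, and the exons that all annotated transcripts contain lie between 68.9% and 107%.

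Fibrillar collagens make the cable-like fibrils of connective tissue. Of the 11 genes, 1 was called, Col11a2, and it fell. Col11a2 encodes the alpha2 chain of type XI collagen, a minor component that sets the width of cartilage fibrils, and mutations in it cause hearing loss and skeletal dysplasia. Its counts were 811 to 3559 reads per control mouse and 780 to 2135 per mutator. The levels were 29.1, 32.8, 29.2 and 29.5 CPM in control mice 205, 237, 239 and 246. In the mutators they were 25.1, 24.8, 24.8, 23.5, 22.0, 23.0 and 21.0 CPM in mice 207, 211, 217, 236, 240, 248 and 249. All mutators were below all controls. The log2 fold change was -0.36 (SE 0.059, edgeR adjusted p = 0.0033), that is, 0.778 times the control level. With the 3 WT/WT mice as the controls it was -0.32 (edgeR adjusted p = 0.0341). Col11a2 was called in all 18 other fits of the gene counts, in which its log2 fold change ran from -0.38 to -0.32.

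Col11a2 lies in mm9 on chromosome 17 at 34176382-34203630 of the plus strand, in 67 exon blocks, and the exons of no other annotated gene overlap it, nor those of Sparc on chromosome 11 at 55208002-55233582 of the minus strand. The 250 bases before the start of both genes follow, since theirs were the groups that lay apart, taken from the RefSeq promoters of GRCm38.p6 at chr17:34038888-34039137 (plus strand) and chr11:55420081-55420330 (minus strand). They read 5′ to 3′ towards the start. Capitals mark the GC box, searched as GGGCGG on both strands, and the TATA box, searched as TATAAA on both strands. The CCAAT box was searched by the letters of its name, and in these stretches no match of one motif overlapped that of another.
Col11a2: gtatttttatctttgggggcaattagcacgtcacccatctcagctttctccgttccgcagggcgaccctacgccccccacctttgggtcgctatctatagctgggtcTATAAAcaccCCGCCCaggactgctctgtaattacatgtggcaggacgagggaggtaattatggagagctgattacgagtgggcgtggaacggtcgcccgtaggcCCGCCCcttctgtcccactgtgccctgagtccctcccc
Sparc: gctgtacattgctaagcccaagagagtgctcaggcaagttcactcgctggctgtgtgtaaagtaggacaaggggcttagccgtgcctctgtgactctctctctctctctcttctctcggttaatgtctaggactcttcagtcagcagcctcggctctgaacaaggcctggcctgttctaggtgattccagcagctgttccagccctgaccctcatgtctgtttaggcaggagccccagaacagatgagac

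The Col11a2 stretch held 2 GC boxes and 1 TATA box, and that of Sparc held none of the 3 motifs. RefSeq windows were found for 43 of the 59 genes, 48 windows in all. A GC box was in 27 of the 48 windows, or 56.2%, against 32.7% of the 32851 windows of the whole table. A TATA box was in 5 of the 48, or 10.4%, against 12.4% of all, and a CCAAT box in 15, or 31.2%, against 33.8% of all. These are matches of letters and no measure of binding.

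Col11a1, the partner chain of Col11a2 in type XI collagen, was at 21.5, 19.6, 20.3 and 18.1 CPM in control mice 205, 237, 239 and 246 and between 18.6 and 25.2 CPM in mutators, with overlapping groups; it was named after its values were seen. Its log2 fold change was 0.078 (SE 0.077). Col5a1, the main chain of the type V collagen that nucleates fibrils, was at 27.4, 37.8, 28.7 and 27.2 CPM in the same controls and between 20.8 and 33.4 CPM in mutators. Mouse 237 stood above and mutator mouse 217 below the rest of their groups, and the log2 fold change was -0.0095 (SE 0.13). Type I collagen, the most abundant collagen of the body, was low here. The ratio of its chains, Col1a2 to Col1a1, was 1.97 ± 0.278 in controls and 2.19 ± 0.213 in mutators (exact permutation p = 0.158). The other fibrillar collagen genes (Col1a1, Col1a2, Col2a1, Col3a1, Col5a2, Col5a3, Col24a1 and Col27a1) had log2 fold changes between -0.36, for Col2a1 at an unadjusted p of 0.0352, and 0.12.

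Markers of glial cells were read beside Col11a2. Of 8 oligodendrocyte markers, 6 were lower in mutators, 0 were called by edgeR and 4 were lower at an unadjusted p under 0.05, where 8.58% of all genes were. Their median log2 fold change was -0.16, and none was at 0 in any mouse. Their summed level was 5005 to 5723 CPM in controls and 4872 to 6827 CPM in mutators. Most of that sum was Mbp, the myelin basic protein, at 2869 ± 225 and 3134 ± 352 CPM. Without it the sum was 2580 ± 160 CPM in controls and 2358 ± 348 CPM in mutators, and the groups overlapped in both sums. The 8 microglia markers were all lower, with a median of -0.13 and 0 called, 4 of them at an unadjusted p under 0.05, where 8.58% of all genes were lower. Of the 8 astrocyte markers, 3 were higher and 5 lower, with a median of -0.047 and 0 called. At an unadjusted p under 0.05, 2 of these were higher (Gjb6 at 0.26 and Gfap at 0.22) and 1 was lower (Slc1a2 at -0.13), against 7.18% and 8.58% of all genes, and these 3 were named after their values were seen. The part of these cells in the result on Col11a2 was not tested.

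The other collagen families had no gene called by edgeR. The 9 FACIT collagens, which sit on the surface of fibrils, had log2 fold changes between -0.28 and 0.26. Of these, 1 gene was at an unadjusted p under 0.05, where 15.8% of all genes were. Of the more abundant ones, Col16a1 was at 26.9 ± 2.49 CPM in controls and 25.3 ± 2.05 CPM in mutators, and Col9a3 was at 17.4 ± 1.98 and 18.5 ± 1.44 CPM. The 4 transmembrane collagens were between -0.29 and 0.14. Col25a1, found on neurons and in amyloid plaques, was at 86.3, 77.1, 91.1 and 70.8 CPM in control mice 205, 237, 239 and 246 and between 88.4 and 91.1 CPM in mutators. The mutators lay close together at the upper end of the controls, and the log2 fold change of 0.14 (SE 0.055) did not pass (edgeR adjusted p = 0.211).

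The 5 genes of the collagen VI family, which forms beaded filaments next to basement membranes, had log2 fold changes between -0.34 and 0.19, with 0 at an unadjusted p under 0.05. Col6a1 was at 81.3, 100.1, 71.9 and 71.8 CPM in control mice 205, 237, 239 and 246 and between 59.1 and 88.1 CPM in mutators (log2 fold change -0.13, SE 0.11). The WT/D257A mouse was again the highest. The ratio of Col6a2 to Col6a1 was 0.276 ± 0.0184 and 0.292 ± 0.0206 (exact permutation p = 0.252). The multiplexins Col15a1 and Col18a1, collagens of the basement membrane zone, had log2 fold changes of -0.18 and 0.18. Of the 5 short chain and other collagens (Col7a1, Col8a1, Col8a2, Col10a1 and Col28a1), Col8a1 had the largest change. It is a short chain collagen of vessel walls and was at 5.68, 5.85, 5.45 and 4.51 CPM in the same controls and between 5.77 and 8.35 CPM in mutators. Mutator mouse 207 alone lay within the controls' range, and the log2 fold change was 0.41 (SE 0.11, edgeR adjusted p = 0.0623). Col8a1 was named after its values were seen.

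Splicing of the matrix genes was compared over the 1663 of their 3207 exon bins that passed the filter, in 48 of the 59 genes. By diffSpliceDGE, 0 bins were called, against 27 of the 206930 bins tested, or 0.0130%. At an unadjusted p under 0.05 there were 33 of the bins, or 1.98%, against 1.95% of all bins, and limma's diffSplice called 0 and gave 37 at an unadjusted p under 0.05. The bins of lowest p were bin 34 of Col9a2, with a log2 change in use of -0.46, bin 22 of Col5a1 (0.75) and bin 5 of Lamc3 (0.96). The edgeR adjusted p of each was 1.00.

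Genes that receive, fold or degrade this matrix were read from lists of related genes, of which 5 of 132 were called, or 3.79%, against 1.24% of all genes tested. The lists were chosen with earlier results of these data known, so these shares are no test of the lists. Of 24 receptors, Itgb4 was called and fell. It is the beta4 integrin, a receptor for laminin, and was at 17.2, 20.7, 18.2 and 18.6 CPM in control mice 205, 237, 239 and 246 and between 11.3 and 16.4 CPM in mutators. All mutators were below all controls (log2 fold change -0.48, SE 0.086, edgeR adjusted p = 0.00822). Of 29 genes for collagen folding and cross-linking, 0 were called by edgeR or DESeq2, 2 had an unadjusted p under 0.05 (15.8% of all genes had), and the median log2 fold change was 0.0035. Of 18 genes of TGF-beta signalling, which drives matrix production, 0 were called by edgeR, 3 were lower at an unadjusted p under 0.05 (8.58% of all genes were), and DESeq2 called Pmepa1.

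Of 23 proteases and inhibitors, 1 was called in each direction. Adamts4, a protease of proteoglycans, fell from 35.5 ± 2.35 to 28.1 ± 3.12 CPM (log2 fold change -0.34, SE 0.072, edgeR adjusted p = 0.0241). Reck, an anchored inhibitor of matrix metalloproteases, rose from 14.4 ± 0.914 to 18.2 ± 1.58 CPM (log2 fold change 0.34, SE 0.072, edgeR adjusted p = 0.0255). The mutators overlapped the controls for Adamts4 and lay above them for Reck. Of 38 other matrix glycoproteins, Fbln5 and Vwf were called and rose. Fbln5, a fibulin of elastic fibres, was at 7.04, 6.84, 9.07 and 6.58 CPM in control mice 205, 237, 239 and 246 and between 10.3 and 18.5 CPM in mutators (log2 fold change 0.83, SE 0.15, edgeR adjusted p = 0.0164). Vwf, the clotting factor stored in endothelial cells, was at 19.3, 21.8, 18.2 and 38.6 CPM in the same controls and between 44.3 and 76.9 CPM in mutators (log2 fold change 1.27, SE 0.25, edgeR adjusted p = 0.0472). For both genes all mutators were above all controls. When mouse 237 was left out, so that the controls were the 3 WT/WT mice, edgeR called 0 of these 5 related genes, and the calls over all genes went from 223 to 50, or 0.273% of those tested. Their log2 fold changes were then 1.23 for Vwf, 0.79 for Fbln5, -0.42 for Itgb4, 0.33 for Reck and -0.30 for Adamts4. The call of Vwf was lost in most fits with 1 mouse left out. It held only without mutator mouse 217 (edgeR adjusted p = 0.0414) or control mouse 246 (0.00963). Without control mouse 246, edgeR did not call Adamts4 (adjusted p = 0.0590), Reck (0.0949) or Fbln5 (0.0642). Blood markers, summed, were 58.0 to 198.9 CPM in controls and 91.2 to 258.2 CPM in mutators, and 7 of 7 were higher, with Ppbp, a platelet chemokine, called (log2 fold change 3.83, SE 0.63, edgeR adjusted p = 0.00483); their part in the results was not tested.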

How the data were processed

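The authors sequenced 100-base paired-end poly(A)+ libraries without strand, aligned reads to mm9 with TopHat2 2.0.6 and Bowtie2 and counted them on Ensembl genes with HTSeq. The deposited gene counts and exon bin counts, not normalized, were used. The authors' deposited DESeq and DEXSeq tables hold fold changes and adjusted p-values and were not used. The members and gene lists were chosen with earlier results of these data known. Named were the called genes, the collagen IV and laminin chains, the 6 genes given by symbol, 5 others of highest mean RPKM over all 11 mice and those said to be chosen later.

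The gene test was the quasi-likelihood test of edgeR 4.0.16 (R 4.3.3), after filterByExpr and TMM and with robust fitting, and p-values were adjusted by Benjamini-Hochberg over all genes tested. CPM and RPKM used TMM factors and exonic lengths of GENCODE. Overlap was judged on log2 CPM with a prior count of 2. Bins were tested with diffSpliceDGE. DESeq2 1.42.0 and limma 3.58.1 were alternatives. Ratios were compared by 2-sided exact permutation tests over mice. The tests were run on simulated data first. Bins were placed by release 65 of Ensembl, while the authors used 61. The labels name no litter or batch. The paper states that the libraries were multiplexed in pools, and the labels do not say which mice shared a pool, so pools were not modelled. The p-values set the differences between the groups against the spread between these mice. Values of 1 member are not reported here, and the plots of fold changes and levels leave it out.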

Additional observations from a re-analysis of the deposited data

Results flagged for a closer look

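In 8 of 136 groups, 68 sets of values in each of the controls and the mutators, 1 mouse stood apart by Dixon's test at the 95% level, and chance would give about 6.80.

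The WT/D257A mouse, mouse 237, was the outlying control for 4 collagen genes. It was highest for Col11a2, at 32.8 CPM against 29.1 to 29.5 in the other controls, with a gap of 0.906 of the range. It was highest for Col4a1, at 50.4 against 41.3 to 42.8 CPM (gap 0.839), for Col5a1, at 37.8 against 27.2 to 28.7 CPM (gap 0.854), and for Col6a2, at 28.8 against 19.6 to 21.0 CPM (gap 0.854). Its genotype cannot be told apart from other features of this single mouse.

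The other flagged mice each stood apart for 1 gene. Control mouse 205 was highest for Nid1, at 9.33 against 7.76 to 7.90 CPM (gap 0.911). Mutator mouse 217 was lowest for Col5a1, at 20.8 against 29.4 to 33.4 CPM (gap 0.688). Mutator mouse 207 was highest for Col6a6, at 0.625 against 0.216 to 0.387 CPM (gap 0.581), and mutator mouse 211 for Lama3, at 9.81 against 6.00 to 7.46 CPM (gap 0.617).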

How the results depend on the processing

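No analysis paired or blocked by litter was possible, because the labels name no litter and no pairs of mice. Over 18 other fits of the gene counts, in which the fit with the 3 WT/WT controls is the one without mouse 237, the matrix genes called numbered 5 by DESeq2, 2 without a filter on low counts and 1 to 4 when each mouse was left out in turn (4 without mutator mouse 207, 2 without control mouse 205), and Col11a2 was called in each. The related genes called, 5 with all mice, numbered 9 by DESeq2, 0 with the 3 WT/WT controls and 0 to 7 with each mouse left out (2 without control mouse 246, 3 without mutator mouse 236 or 240). Over all genes, 223 were called with all mice, 615 by DESeq2, 50 with the 3 WT/WT controls and 50 to 412 with each mouse left out (93 without control mouse 246, 142 and 112 without mutator mouse 236 or 240, 274 without mutator mouse 207, 412 without control mouse 205). Of the chain ratios, 0 to 1 were called with each mouse left out. With a control left out, 3 against 7 mice leave 120 splits and a smallest p of 0.00833. At that p, 1 ratio alone cannot pass the adjustment over 9 pairs, so those fits cannot decide. With the 3 WT/WT controls, the log2 fold changes of 10 of the 59 genes changed sign, those of Col14a1, Col17a1, Col1a2, Col27a1, Col3a1 and Col6a2 beside Col4a5 (-0.0087), Lamb1 (0.00090), Lamc3 (0.044) and Col5a1 (0.11). With each mouse left out, the ranges of 17 genes crossed 0, those of these first 6, Col28a1, Col5a2, Col6a4, Col7a1 and Col9a1 beside -0.025 to 0.21 for Fn1, -0.0075 to 0.099 for Lamb2, -0.099 to 0.00090 for Lamb1, -0.0099 to 0.11 for Col4a5, -0.10 to 0.044 for Lamc3 and -0.060 to 0.11 for Col5a1. Of the 17 genes, 0 were called in any fit. The cause was not tested. The smallest library, control mouse 246, holds 28249345 counts, which limits genes near 1 CPM such as Col4a3, Col4a4 and Col6a6.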
